A study of Homo sapiens with 6 samples.

Results

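The genes described here express the mitochondrial genome. They are the 13 mRNAs encoded in mitochondrial DNA (mtDNA) and 24 nuclear genes whose products transcribe, copy, stabilise or degrade mitochondrial nucleic acids or control those genes. They were chosen by gene symbol, and all 37 symbols were found among the 27216 rows of the expression table. H1975 is a human non-small cell lung cancer line with an activating EGFR mutation, and osimertinib (Osi) is an inhibitor of mutant EGFR. Parental cells (0 h of Osi, 3 samples) were compared with adapted cells (72 h of Osi at 1000 nM, 3 samples), all labelled WT in genotype. The labels give DMEM with serum as the medium and the study's methods name another medium, and a reagent list of the study names another Osi dose than the labels, so that the medium and the dose rest on the labels here. At 72 h, apoptotic cells had been removed by washing, so the adapted samples hold only the cells that remained. The series names DMSO and Osi arms, and the columns taken for the 0 h samples are named DMSO. Whether the 0 h cells were untreated or kept in DMSO is not stated, and Osi cannot be told apart from time in culture. The sample labels describe RNase R, an enzyme that digests linear RNA, whereas the study's methods name total RNA with no such step, and its effect on these values was not tested. The study states in general that its data came from independent experiments, but neither the labels nor its methods say whether the 3 RNA samples of a group came from separate cultures. The p-values rest on the spread between these samples, which may be technical. In the fit of each row, that spread is drawn towards the spread of other rows of similar level. In bulk RNA, fewer cells of a kind and less RNA per cell cannot be told apart.

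Human mtDNA is a small circular genome inside the mitochondrion. It encodes core subunits of the respiratory complexes I, III, IV and V, and its strands are transcribed into long precursors from which the single RNAs are cut. Because mRNAs of one strand start from shared precursors, their steady levels also depend on processing, on binding proteins that protect them and on decay. All proteins that do this work are encoded in the nucleus, made in the cytosol and imported, and their genes are classical targets of NRF1, GABPA, ERR-alpha and the PGC-1 coactivators.

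Values are log2(FPKM + 1), where FPKM is a read density per length of gene and per library size. The unit was inferred from the values. Summed FPKM lay between 375342 and 387753 per sample, and the number of reads is not known. A row was tested when its mean log2 value was at least 1, which left 12656 rows and 36 of the 37 members (PPARGC1A was not tested). Of all tested rows, limma called 56.9% at an adjusted p under 0.05, with 30.7% higher and 26.2% lower in adapted cells, and in 66.3% the 3 adapted values did not overlap the 3 parental values. The median log2 fold change of all tested rows was 0.03. All 8 epithelial markers examined were expressed, with a summed level of 4319 to 4352 FPKM in parental and 4109 to 4402 FPKM in adapted cells. Of the leukocyte markers, CD3E was at 0 in every sample, and the summed level was 74.5 to 76.9 FPKM in parental and 14.8 to 29.8 FPKM in adapted cells, with CD68 as the only marker of the 5 with a mean of at least 1. The fibroblast list gave 2.997 to 3.14 FPKM against 8.11 to 8.89 FPKM, with COL1A1 as the only marker of the 5 with a mean of at least 1. The part of these markers in the results was not tested. The endothelial list summed to 3.50 FPKM at most, with none of its 4 markers at a mean of 1 over the 6 samples. Within groups, the mean log2 value of PECAM1 was 1.22 in parental and 0.09 in adapted cells. For CDH5 it was 0.21 in parental and 1.71 in adapted cells. The 3 erythroid genes were at 0 in all samples.

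All 13 mtDNA-encoded mRNAs had a higher mean in adapted cells, except that MT-CO1 and MT-CO2 were at 0 change after quantile normalization, and for 7 of them the increase passed the test: MT-ND1, MT-ND2, MT-ND3, MT-ND5, MT-CYB, MT-CO3 and MT-ATP6. That is 53.8% of the 13, against 30.7% of all tested rows called in that direction and 56.9% called in either direction. Their increases ranged from 0.56 to 0.83 on the log2 scale, and the median over the 13 was 0.56. None of the 13 was called lower. In 8 of 13 the groups did not overlap, which is close to the 66.3% of all tested rows. The 7 calls held when any 1 sample was left out. They rest in part on the filter, since without it 3 of the 7 (MT-ND1, MT-ND3 and MT-ND5) passed and MT-ND2, MT-CYB, MT-CO3 and MT-ATP6 did not. The log2 fold changes stayed the same without the filter, and the standard errors of the fit became larger. They went from 0.121 to 0.215 for MT-ND2 and from 0.135 to 0.250 for MT-CYB. For MT-CO3 the standard error went from 0.129 to 0.506, and for MT-ATP6 from 0.153 to 0.386.

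**Figure D1:**
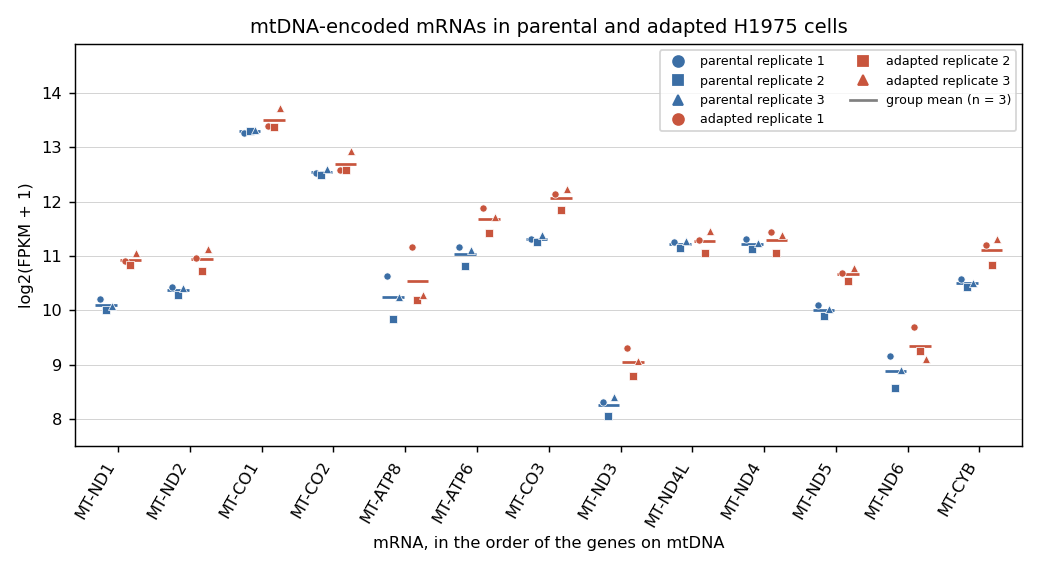
The 13 mtDNA-encoded mRNAs in order along mtDNA (x axis), as log2(FPKM + 1) in each of the 6 samples (y axis), with parental samples in blue, adapted samples in red and a line at each group mean (n = 3). MT-CO1 lies highest, between 13.26 and 13.73 in all samples, while MT-ND1 is separated by group, at 10.01 to 10.21 in parental and 10.83 to 11.05 in adapted cells.

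Complex I takes electrons from NADH, and 7 of its subunits are encoded in mtDNA. MT-ND1, a subunit of the membrane arm near the quinone site, was at 10.21, 10.01 and 10.07 in parental cells and 10.91, 10.83 and 11.05 in adapted cells. Every adapted value lay above every parental value. The mean was 1096 ± 79.7 FPKM against 1953 ± 152 FPKM (SD, n = 3 each), a 1.78-fold increase on the log2(FPKM + 1) scale with a log2 fold change of 0.83 and a 95% interval of 0.60 to 1.07 (limma, adjusted p = 0.000397). MT-ND1 lies at chrM:3307-4262 (plus strand, GRCh38, GENCODE release 29).

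MT-ND3 was the least abundant of the 13 per length, with 8.32, 8.06 and 8.40 in parental and 9.30, 8.79 and 9.08 in adapted cells. Its groups were also separate, and it rose by 0.80 (limma, adjusted p = 0.00300). MT-ND5, the distal proton-pumping subunit, was at 10.09, 9.91 and 10.03 in parental and 10.68, 10.53 and 10.77 in adapted cells, and it rose by 0.65 (limma, adjusted p = 0.00119). MT-ND2 was at 10.43, 10.28 and 10.42 against 10.96, 10.73 and 11.13, and it rose by 0.56 (limma, adjusted p = 0.00589). For both genes each adapted sample lay above all parental samples.

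MT-ND4 and MT-ND4L were not called. MT-ND4 was at 11.31, 11.12 and 11.23 in parental and 11.45, 11.06 and 11.39 in adapted cells, so that the lowest adapted sample lay below every parental sample. Its log2 fold change was 0.08, with an interval of -0.23 to 0.38 (limma, adjusted p = 0.633). MT-ND4L was at 11.25, 11.16 and 11.28 against 11.30, 11.06 and 11.46, with a log2 fold change of 0.04 and an interval of -0.25 to 0.33 (limma, adjusted p = 0.782). Both intervals end below the fitted increase of MT-ND1, MT-ND2, MT-ND3 and MT-ND5. They overlap the interval of MT-ND2, which is 0.28 to 0.85, and the difference from MT-ND2 was not tested. MT-ND6 was at 9.16, 8.57 and 8.91 in parental and 9.69, 9.25 and 9.11 in adapted cells, with overlapping groups and a log2 fold change of 0.47 (adjusted p = 0.0704 with limma). MT-ND6 is the only one of the 13 on the minus strand, and its transcript was 35.6% G where the other 12 were 6.28% to 16.2% G. Whether reads were counted by strand is not stated, so reads of MT-ND6 and of the opposite precursor cannot be told apart. Without parental replicate 1 its log2 fold change was 0.61 and passed (limma, adjusted p = 0.0448). With any other single sample left out MT-ND6 did not pass (limma, adjusted p = 0.0534 to 0.218).

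MT-ND4L and MT-ND4 are read from a single bicistronic mRNA, and MT-ATP8 and MT-ATP6 from another. Their reading frames overlap, so that reads in the shared bases belong to both genes. The overlaps are printed because each pair shares a molecule and its members can be compared on it. They stand with 20 bases of mtDNA on each side, on the plus strand of GRCh38, from the GENCODE release 29 transcripts, with the shared bases in capitals. The end of MT-ND4L and the start of MT-ND4 share 7 bases (window chrM:10740-10786), and the end of MT-ATP8 and the start of MT-ATP6 share 46 bases (window chrM:8507-8592).
MT-ND4L and MT-ND4: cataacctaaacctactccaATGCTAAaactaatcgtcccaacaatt
MT-ATP8 and MT-ATP6: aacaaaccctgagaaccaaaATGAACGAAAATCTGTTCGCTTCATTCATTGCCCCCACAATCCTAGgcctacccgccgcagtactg

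Both capital runs begin with ATG, the start codon of the downstream gene. The shared bases make up 2.36% of MT-ND4L and 22.2% of MT-ATP8. MT-ND4 minus MT-ND4L was close to 0 on the log2 scale in both groups, at -0.01 ± 0.06 in parental cells and 0.03 ± 0.11 in the adapted (SD, n = 3 each; exact permutation test, two-sided, p = 0.7). MT-ATP6 minus MT-ATP8 averaged 0.79 ± 0.24 in parental and 1.13 ± 0.37 in adapted cells, although the genes share an mRNA, and the difference between groups was within the spread (exact permutation test, two-sided, n = 3 each, p = 0.3).

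Complex V is the ATP synthase, and complex III passes electrons to cytochrome c. MT-ATP6, which forms part of the proton channel of ATP synthase, was at 11.16, 10.82 and 11.11 in parental and 11.88, 11.42 and 11.72 in adapted cells, and it rose by 0.64 (limma, adjusted p = 0.00947). MT-ATP8, a small subunit of the same complex, was at 10.64, 9.84 and 10.24 against 11.16, 10.19 and 10.28, with overlapping groups, a log2 fold change of 0.30 and an interval of -0.40 to 0.999 (limma, adjusted p = 0.413). MT-CYB encodes cytochrome b, the only complex III subunit in mtDNA. It was at 10.58, 10.43 and 10.50 in parental and 11.21, 10.84 and 11.31 in adapted cells, without overlap, and it rose by 0.61 (limma, adjusted p = 0.00667).

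Complex IV, cytochrome c oxidase, has its 3 catalytic core subunits in mtDNA, of which MT-CO3 was called. MT-CO3 was at 11.31, 11.26 and 11.38 in parental and 12.13, 11.85 and 12.24 in adapted cells. All adapted values were higher, the mean was 2548 ± 112 FPKM against 4334 ± 589 FPKM (SD, n = 3 each), and the log2 fold change was 0.76 with an interval of 0.46 to 1.06 (limma, adjusted p = 0.00201). MT-CO1, the subunit with the heme and copper site where oxygen is reduced, was the most abundant of the 13 at 13.26, 13.30 and 13.32 in parental and 13.39, 13.38 and 13.73 in adapted cells. Its groups did not overlap, but the log2 fold change of 0.20 did not pass (limma, adjusted p = 0.272). MT-CO2, which receives electrons from cytochrome c, was at 12.53, 12.49 and 12.60 against 12.58, 12.58 and 12.92, with overlapping groups and a log2 fold change of 0.16 (adjusted p = 0.366 with limma).

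As a share of the summed FPKM, the 13 mRNAs made up 8.66%, 8.07% and 8.63% in parental and 10.9%, 9.73% and 12.2% in adapted cells. The mean was 8.45% ± 0.33 against 10.9% ± 1.21 (SD, n = 3 each), a difference of 2.46 percentage points that is a description and was not tested. Every adapted sample was above every parental sample. Complex IV mRNAs contributed 4.84% ± 0.11 and 5.96% ± 0.83 of the summed FPKM, and complex I mRNAs 2.36% ± 0.15 and 3.09% ± 0.31. The 24 nuclear members together made up 0.105% ± 0.0017 and 0.110% ± 0.0035 as deposited, and 0.105% ± 0.0017 and 0.103% ± 0.0036 (SD, n = 3 each) once the constants described for LRPPRC were subtracted throughout the table, so that the direction turned. Within the 13, MT-CO1 and MT-CO2 made up 49.5% ± 2.04 of the sum in parental and 44.1% ± 3.52 in adapted cells. MT-CO3 went from 7.87% ± 0.21 to 10.4% ± 0.30 of that sum, and MT-ND1 from 3.38% ± 0.16 to 4.72% ± 0.23.

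**Figure D2:**
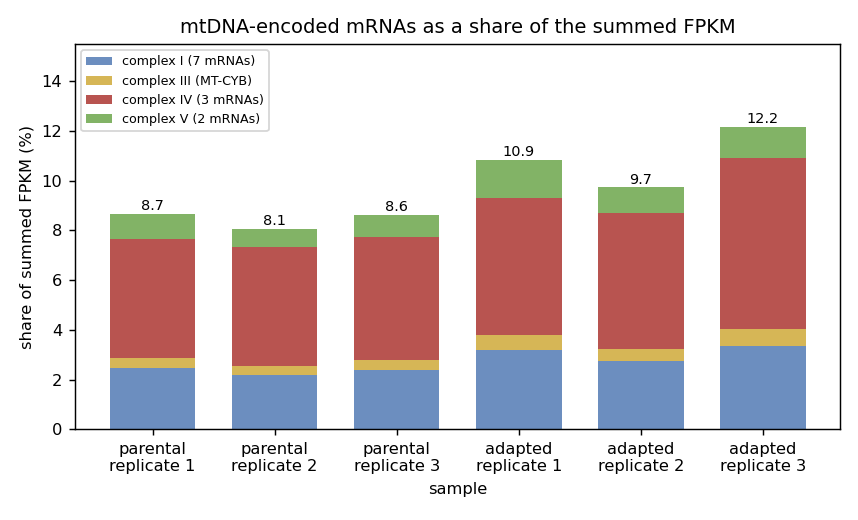
Share of the summed FPKM taken by the 13 mtDNA-encoded mRNAs in each of the 6 samples (y axis, percent), stacked by respiratory complex, with the total printed above each bar. The 3 adapted bars reach 9.73% to 12.2%, above the 3 parental bars at 8.07% to 8.66%.

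The 13 mRNAs were also placed relative to their own median in each sample, which leaves out a shift common to all of them. MT-CYB was that median in every sample except parental replicate 1, where it was MT-ATP8. Since MT-CYB was itself called higher, an mRNA that rose less than MT-CYB is lower on this scale without a fall of its own. On this scale 4 mRNAs were lower in every adapted than in every parental sample, 2 were higher, and 7 overlapped. Of all tested rows, 66.3% did not overlap on the deposited scale, and no such share was computed on the relative scale. The 4 lower ones were MT-CO1, from 2.77 ± 0.13 to 2.38 ± 0.18, MT-CO2, from 2.01 ± 0.11 to 1.57 ± 0.19, MT-ND4L, from 0.70 ± 0.08 to 0.15 ± 0.06, and MT-ND4, from 0.70 ± 0.03 to 0.18 ± 0.09 (log2 units above the median of the 13, SD, n = 3 each). MT-ND1 went from -0.43 ± 0.002 to -0.19 ± 0.16 and MT-CO3 from 0.79 ± 0.11 to 0.95 ± 0.04. Except for MT-ND1, the mRNAs that stood apart on this scale lay above the median of the 13 in both groups.

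**Figure D3:**
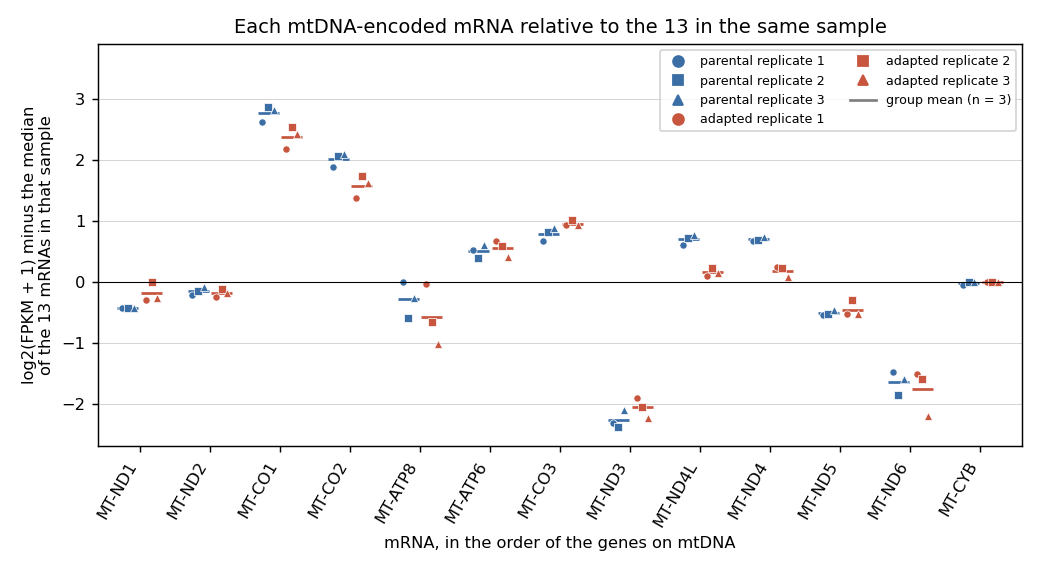
Each mtDNA-encoded mRNA (x axis, in order along mtDNA) as its log2(FPKM + 1) minus the median of the 13 in the same sample (y axis), with parental samples in blue, adapted samples in red and lines at group means (n = 3). Relative to that median, MT-CO1, MT-CO2, MT-ND4L and MT-ND4 are lower in all adapted samples, and MT-ND1 and MT-CO3 are higher.

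These differences in proportion were seen for genes of the same strand and complex. MT-CO3 minus MT-CO2 averaged -1.22 ± 0.01 in parental cells and -0.62 ± 0.15 in the adapted (SD of log2 differences, n = 3 each; exact permutation test, two-sided, p = 0.1, the smallest this design allows). MT-ND1 minus MT-ND4 averaged -1.12 ± 0.03 in parental and -0.37 ± 0.16 in adapted cells, also without overlap (exact permutation test, two-sided, n = 3 each, p = 0.1). Both pairs were named after the values had been seen, so their separation was known beforehand and these p-values lend it no support.

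The samples of a group differed in a way shared by nearly all the mtDNA-encoded mRNAs. Parental replicate 2 had the lowest value of its group for 12 of the 13, and adapted replicate 2 had the lowest value of its group for 12 of the 13. The median log2 fold change of the 13 was 0.52 without parental replicate 2 and 0.67 without adapted replicate 2. The spread between replicates was largest for MT-ATP8 (207 bases, pooled SD 0.47), MT-ND6 (525 bases, 0.30) and MT-ND3 (346 bases, 0.22). MT-ND4L, with 297 bases, had a pooled SD of 0.15. The median pooled SD was 0.15 for the 13 mRNAs, 0.11 for the nuclear members, and 0.12 for the 166 tested rows with a mean of at least 8.

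The nuclear members were called in both directions. Of the 23 tested, 6 rose, 7 fell and 10 did not pass, so 56.5% were called where 56.9% of all tested rows were, and their median log2 fold change was -0.08. The genes that rose were MTERF1, POLG, TWNK, LRPPRC, FASTKD5 and SUPV3L1. Those that fell were TFB1M, POLRMT, POLG2, SSBP1, SLIRP, FASTKD3 and PPRC1. In 16 of 23 the groups did not overlap, near the 66.3% of all tested rows. The count of calls moved with single libraries: it was 6 without parental replicate 1, 7 without parental replicate 2, 7 without parental replicate 3 and 8 without adapted replicate 3. TFB1M, TWNK, SSBP1, FASTKD3 and PPRC1 each lost their call in 8 to 13 of the alternatives to the fit, and POLG2 and SLIRP in 5. MTERF1, POLG, FASTKD5, SUPV3L1 and POLRMT, where tested, lost theirs only where a log2 change of at least 1 was required. MTERF1 was not tested where a mean of at least 3 was required.

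**Figure D4:**
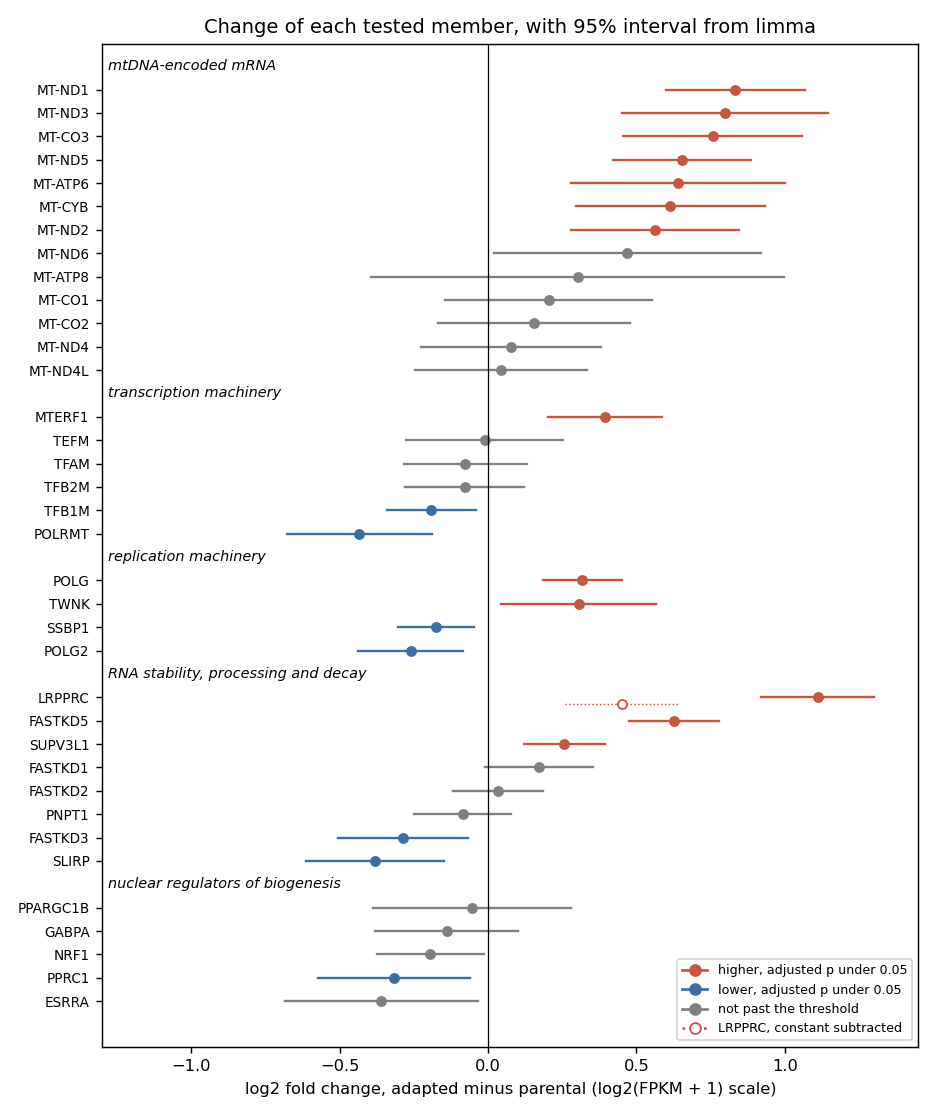
Log2 fold change of each of the 36 tested members (x axis, adapted minus parental on the log2(FPKM + 1) scale) with its 95% limma interval, grouped by role, with red for called higher, blue for called lower and grey for not past the threshold. The mtDNA-encoded mRNAs lie at 0.04 to 0.83, all right of 0, and the nuclear members lie on both sides of 0, with LRPPRC farthest right at 1.11 as deposited and 0.45 (open circle) after subtraction of a constant.

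Transcription of mtDNA needs the polymerase POLRMT, the DNA-packaging and promoter-bending factor TFAM and the initiation factor TFB2M, while TEFM supports elongation. POLRMT was at 3.76, 3.71 and 3.73 in parental and 3.53, 3.15 and 3.21 in adapted cells. Every adapted sample was lower, the mean was 12.3 ± 0.21 FPKM against 8.91 ± 1.44 FPKM (SD, n = 3 each), and the log2 fold change was -0.43 with an interval of -0.68 to -0.19 (limma, adjusted p = 0.00952). POLRMT lies at chr19:617224-633604 on the minus strand (GRCh38, GENCODE release 29), and its call held without any 1 sample.

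For TFAM, TFB2M and TEFM the groups overlapped. TFAM was at 3.64, 3.49 and 3.49 in parental and 3.58, 3.49 and 3.32 in adapted cells, with a log2 fold change of -0.08 and an interval of -0.28 to 0.13 (limma, adjusted p = 0.489). TFB2M was at 3.70, 3.74 and 3.66 against 3.76, 3.64 and 3.46, with a log2 fold change of -0.08 (adjusted p = 0.459 with limma). TEFM ranged from 2.33 to 2.48 in parental and from 2.18 to 2.58 in adapted cells, with a log2 fold change of -0.01 (adjusted p = 0.941 with limma).

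MTERF1 and TFB1M were called in opposite directions. MTERF1 binds mtDNA downstream of the rRNA genes and stops transcripts there in vitro. It was at 2.56, 2.79 and 2.75 in parental and 3.06, 3.12 and 3.10 in adapted cells, all higher, and it rose by 0.39 (limma, adjusted p = 0.00519). TFB1M, despite its name, methylates the small mitochondrial rRNA. It was at 3.38, 3.47 and 3.42 in parental and 3.17, 3.27 and 3.25 in adapted cells, all lower, and it fell by 0.19 (limma, adjusted p = 0.0366). This call was lost without parental replicate 1, 2 or 3 or adapted replicate 3 (limma, adjusted p = 0.0779, 0.141, 0.104 and 0.0539).

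The replication fork of mtDNA is formed by the polymerase POLG, its accessory subunit POLG2, the helicase TWNK and the single-stranded DNA-binding protein SSBP1. All 4 were called and none of the 4 had overlapping groups, with 2 higher and 2 lower, where 56.9% of all tested rows were called and 66.3% did not overlap. With 4 genes, these counts are a description. The catalytic subunit POLG was at 3.30, 3.32 and 3.32 in parental and 3.64, 3.62 and 3.62 in adapted cells, and it rose by 0.32 (limma, adjusted p = 0.00252). Its partner POLG2 was at 3.32, 3.27 and 3.17 against 2.98, 3.08 and 2.92, and it fell by 0.26 (limma, adjusted p = 0.0210). The 2 subunits of the same polymerase were thus called in opposite directions.

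TWNK was at 2.998, 2.97 and 2.86 in parental and 3.47, 3.05 and 3.22 in adapted cells and rose by 0.30, close to the threshold (limma, adjusted p = 0.0497). SSBP1, the most abundant nuclear member at 105 ± 2.61 FPKM in parental cells, was at 6.69, 6.76 and 6.74 against 6.59, 6.55 and 6.54 and fell by 0.17 (limma, adjusted p = 0.0285). Single libraries ended 3 of these 4 calls. POLG2 did not pass without parental replicate 1 or 2 or adapted replicate 3 (limma, adjusted p = 0.0872, 0.0782 and 0.0562), and SSBP1 did not pass without parental replicate 1, 2 or 3 or adapted replicate 2 (0.0633, 0.120, 0.103 and 0.0555). With 1 sample left out, TWNK passed only without adapted replicate 2, and its adjusted p was otherwise 0.0620 (without adapted replicate 1) to 0.151 (without parental replicate 3, limma). It lost its call in 13 of the 21 alternatives. The call of POLG held without any 1 sample.

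LRPPRC and SLIRP form a complex that binds and protects most mtDNA-encoded mRNAs and supports their polyadenylation and translation. LRPPRC had the largest change of the 36 tested members as deposited, at 5.54, 5.38 and 5.24 in parental and 6.51, 6.48 and 6.502 in adapted cells, a rise of 1.11 with an interval of 0.92 to 1.301 (limma, adjusted p = 4.65e-05). Its 3 adapted values are not on the grid of the table. In nearly all rows, 2 to the power of the value, minus 1, is a number with 6 decimals, and 147 of the 27216 rows depart from this in the 3 values of 1 group. LRPPRC is the only member among them. A constant of 0.66 returned its 3 adapted values to the grid, as it did in 87 rows in all. After subtraction the adapted values were 5.85, 5.82 and 5.84, still above all parental values, and the rise was 0.45 with an interval of 0.26 to 0.64 (limma, adjusted p = 0.00273). Which of these values was measured was not tested. LRPPRC lies at chr2:43886508-43996005 on the minus strand (GRCh38, GENCODE release 29).

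SLIRP moved in the other direction, with 5.78, 5.54 and 5.77 in parental and 5.47, 5.30 and 5.17 in adapted cells. All adapted values were lower, and it fell by 0.38 (limma, adjusted p = 0.0136). Its call was lost without parental replicate 1 (limma, adjusted p = 0.0551), without parental replicate 3 (0.0544) and with no filter (0.0584). LRPPRC minus SLIRP was -0.31 ± 0.19 in parental cells and 1.18 ± 0.15 in adapted cells as deposited, or 0.52 ± 0.15 with the constant subtracted (log2 difference, SD, n = 3 each; exact permutation test, two-sided, p = 0.1 on either values, the smallest this design allows).

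The FASTK family of RNA-binding proteins acts on single mitochondrial RNAs, and 4 of its genes are members. FASTKD5, which is needed to release mRNAs whose ends no tRNA marks, was at 3.34, 3.24 and 3.28 in parental and 3.98, 3.901 and 3.86 in adapted cells. The groups were far apart, at 8.77 ± 0.34 FPKM against 14.1 ± 0.66 FPKM (SD, n = 3 each), and it rose by 0.63 with an interval of 0.47 to 0.78 (limma, adjusted p = 0.000203). This was the largest rise among nuclear members with no departure from the grid. FASTKD5 lies at chr20:3146519-3159897 on the minus strand (GRCh38, GENCODE release 29).

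FASTKD3 was at 2.91, 2.94 and 2.99 in parental and 2.64, 2.83 and 2.51 in adapted cells, and it fell by 0.29 (limma, adjusted p = 0.0328). It did not pass without parental replicate 1, 2 or 3 or adapted replicate 3 (limma, adjusted p = 0.0730, 0.0877, 0.108 and 0.0817). FASTKD1 was at 2.97, 2.96 and 2.83 against 3.04, 3.20 and 3.05, without overlap but with a log2 fold change of 0.17 that did not pass (limma, adjusted p = 0.0968). FASTKD2, a factor of mitochondrial ribosome assembly, ranged from 4.11 to 4.28 in parental and 4.20 to 4.24 in adapted cells, with a log2 fold change of 0.03 (adjusted p = 0.677 with limma).

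SUPV3L1 is the helicase and PNPT1 the exoribonuclease of the mitochondrial degradosome, which destroys antisense and surplus RNA. SUPV3L1 was at 3.65, 3.58 and 3.58 in parental and 3.86, 3.84 and 3.89 in adapted cells, all higher, and it rose by 0.26 (limma, adjusted p = 0.00743). PNPT1 was at 3.76, 3.72 and 3.68 against 3.63, 3.73 and 3.54, with overlapping groups and a log2 fold change of -0.09 (adjusted p = 0.325 with limma).

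**Figure D5:**
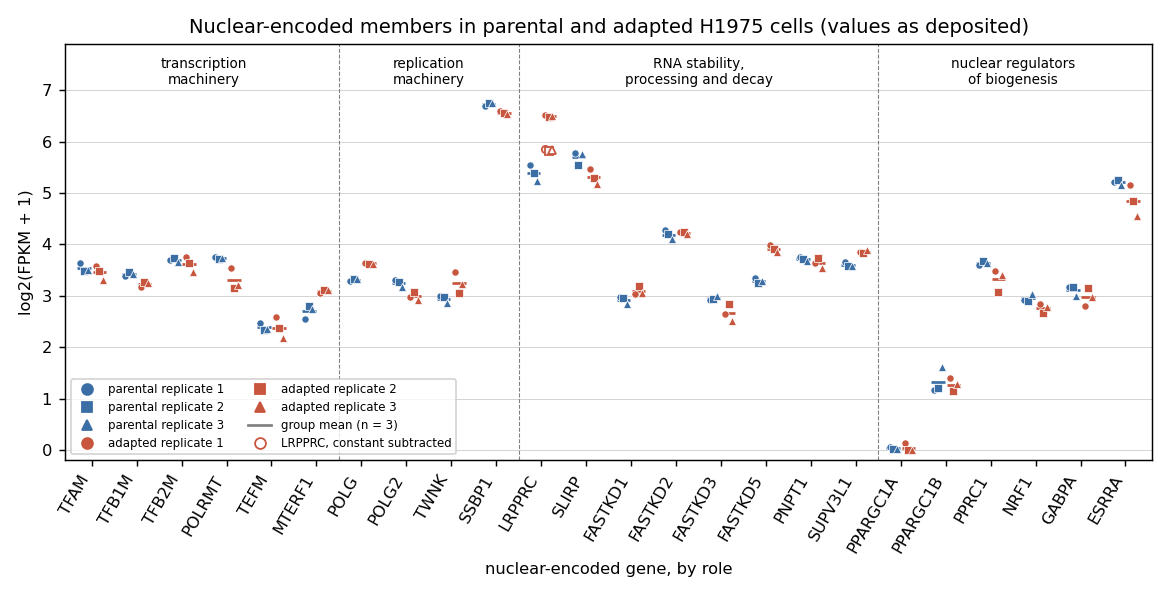
The 24 nuclear members by role (x axis) as log2(FPKM + 1) in each of the 6 samples (y axis), with parental samples in blue, adapted samples in red and lines at group means (n = 3). LRPPRC is shown as deposited (6.48 to 6.51 in adapted cells) and with the constant subtracted (open symbols, 5.82 to 5.85), and PPARGC1A lies at or near 0 in all samples.

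Of the 6 nuclear regulators of mitochondrial biogenesis, 5 were tested and none of these was called higher. All 5 had a lower mean in adapted cells and 1 was called, with a median log2 fold change of -0.19. Over all tested rows, 56.9% were called and 26.2% were called lower. PPARGC1A, which encodes the inducible coactivator PGC-1 alpha, was at 0.06, 0.01 and 0.02 in parental and at 0.14 in adapted replicate 1, and was listed at 0 in adapted replicates 2 and 3. PPARGC1B, its relative, ranged from 1.16 to 1.61 in parental and 1.14 to 1.39 in adapted cells, with a log2 fold change of -0.05 (adjusted p = 0.761 with limma). PPRC1, the third and growth-responsive coactivator of the family, was at 3.60, 3.67 and 3.64 in parental and 3.48, 3.07 and 3.41 in adapted cells, and it fell by 0.32 (limma, adjusted p = 0.0402). Its call was lost without parental replicate 1, 2 or 3 or adapted replicate 3 (limma, adjusted p = 0.0853, 0.114, 0.1002 and 0.05003).

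The DNA-binding factors NRF1, GABPA and ESRRA did not pass the test. ESRRA, which encodes the nuclear receptor ERR-alpha, was at 5.21, 5.26 and 5.17 in parental and 5.15, 4.85 and 4.56 in adapted cells. All adapted values were lower and spread widely, and the log2 fold change was -0.36 (limma, adjusted p = 0.0594, or 0.00183 without adapted replicate 1). NRF1 was at 2.92, 2.91 and 3.03 against 2.83, 2.66 and 2.77, with a log2 fold change of -0.19 (adjusted p = 0.0632 with limma, or 0.0240 without adapted replicate 1). With any other single sample left out, neither ESRRA nor NRF1 passed. GABPA, the DNA-binding subunit of NRF2/GABP, was at 3.16, 3.17 and 3.003 against 2.80, 3.14 and 2.97, with overlapping groups and a log2 fold change of -0.14 (adjusted p = 0.279 with limma).

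Promoters of the nuclear members were searched for the letters of sites bound by these factors, on both strands, from 250 bases before to 50 bases after the RefSeq start (GRCh38.p14). A promoter was found for 21 of the 24 genes, and TWNK, FASTKD5 and NRF1 had no entry. The NRF1 core GCGCATGC was present in 4 of 21 promoters, those of TFB1M, TFB2M, POLRMT and ESRRA, against 3.27% of 27305 promoters and 5.74% of the 9334 that belong to tested rows. These 4 are shown because they place that motif in POLRMT and TFB2M of the transcription machinery, in the rRNA methyltransferase gene TFB1M and in the regulator ESRRA. Each line gives 30 bases on the strand of the gene, with the motif (GCGCATGC, or GCATGCGC on the opposite strand) in capitals. The motif is nearly its own reverse complement, so that matches on both strands can overlap.
TFB1M, chr6:155314598-155314627, minus strand: ggcaggacttaGCGCATGCgctctcagcac
TFB2M, chr1:246566258-246566287, minus strand: ctccgctgttcGCATGCGCaggctctagtg
POLRMT, chr19:633543-633572, minus strand: aggcggcgcggGCGCATGCgcaggcgcggg
POLRMT, chr19:633651-633680, minus strand: agcgtccaccgGCGCATGCcttcgcgcctc
ESRRA, chr11:64305484-64305513, plus strand: ccccctgctttGCATGCGCacggccggccc

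Of these 4 genes, TFB1M and POLRMT were called lower, and TFB2M and ESRRA did not pass, with log2 fold changes of -0.08 and -0.36. The ETS core CCGGAAG, bound by GABPA and other ETS factors, was present in 8 of 21 promoters (GABPA, MTERF1, POLG2, POLRMT, SLIRP, SSBP1, TEFM and TFB1M), against 10.7% of all promoters and 20.6% of those of tested rows. Of the 8 genes, MTERF1 rose, POLG2, POLRMT, SLIRP, SSBP1 and TFB1M fell, and GABPA and TEFM did not pass. The calls of POLG2, SLIRP, SSBP1 and TFB1M did not hold in all alternatives to the fit. In all tested rows 56.9% were called and 26.2% were called lower, and a link between a motif and the direction of change was not tested. The YY1 letters AAGATGGCG were present in 2 promoters, those of PPRC1 and SLIRP (1.85% of all promoters and 4.26% of those of tested rows). The ERR letters TCAAGGTCA and the CREB letters TGACGTCA were in none of the 21 windows, and in 0.359% and 1.98% of all promoters, or 0.139% and 3.28% of those of tested rows. A match is a description of the sequence and not a bound site.

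The wider pathway was described with 4 further lists of nuclear genes. Of their 89 tested genes, 14 rose and 24 fell, so that 42.7% were called where 56.9% of all tested rows were, and the median log2 fold change was -0.06. In all tested rows 30.7% were called higher and 26.2% lower. Among the 14 that rose are HSD17B10 and OXA1L. With the constant described for LRPPRC subtracted, these genes did not pass (limma, adjusted p = 0.214 and 0.517). Mitochondrial rRNAs and tRNAs were not analysed here.

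For mtDNA replication and maintenance, none of the 20 tested genes was called higher and 8 were called lower, with a median log2 fold change of -0.21. Of the 20, 4 had a higher and 16 a lower mean in adapted cells. In this list 40.0% were called, all of them lower, where 56.9% of all tested rows were called and 26.2% were called lower. DNA2, a nuclease and helicase of both nucleus and mitochondrion, was at 2.66, 2.67 and 2.61 in parental and 1.71, 1.68 and 1.60 in adapted cells, and it fell by 0.98 (limma, adjusted p = 4.80e-05). DGUOK, the deoxyguanosine kinase that feeds the mitochondrial nucleotide pool, fell by 0.47, from 5.27 ± 0.01 to 4.80 ± 0.11 (log2 scale, SD, n = 3 each; limma, adjusted p = 0.00110). ATAD3B, a membrane ATPase linked to nucleoids, fell by 0.47, from 3.80 ± 0.08 to 3.34 ± 0.32 (limma, adjusted p = 0.0327). The direction of POLG and TWNK, which were higher, was therefore not that of any called gene on this list. TOP3A rose by 0.31 without overlap, but it narrowly missed the threshold (limma, adjusted p = 0.0515), which TWNK narrowly passed.

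Among 15 tested genes of mitochondrial transcription and its nuclear regulators, 2 rose and 4 fell, so that 40.0% were called. CREB1, a cyclic AMP-responsive activator, fell by 0.50 (limma, adjusted p = 0.00440). TFEB, a regulator of lysosomal genes, fell by 0.42 (limma, adjusted p = 0.00608), and GABPB1, the partner subunit of GABPA, fell by 0.32 from 3.23 ± 0.03 to 2.91 ± 0.05 (log2 scale, SD, n = 3 each; limma, adjusted p = 0.00426). PPARD, a lipid-sensing nuclear receptor, rose by 0.40 (limma, adjusted p = 0.0138). The other gene that rose, MTERF4, which acts in mitochondrial ribosome assembly, is named after its values were seen, and its groups overlapped, with 3.63, 3.46 and 3.07 in parental and 4.33, 3.63 and 4.32 in adapted cells (limma, adjusted p = 0.0267).

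Among 32 tested genes of RNA processing, modification and decay, 8 rose and 5 fell, so that 40.6% were called, with a median log2 fold change of 0.08. HSD17B10, a subunit of mitochondrial RNase P, rose by 0.75 as deposited, but its adapted values carry the same constant of 0.66 as LRPPRC, and after subtraction the log2 fold change was 0.09 (limma, adjusted p = 0.214). NGRN, which binds the large mitochondrial rRNA, rose by 0.50 (limma, adjusted p = 0.000569), and REXO2, an exonuclease for very short RNAs, rose by 0.41 (limma, adjusted p = 0.00200). MRM3, an rRNA methyltransferase, fell by 0.53 (limma, adjusted p = 0.00879), DHX30, a helicase of mitochondrial RNA granules, fell by 0.33 (limma, adjusted p = 0.0167), and MTPAP, the mitochondrial poly(A) polymerase, fell by 0.29 (limma, adjusted p = 0.00845).

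Among 22 tested translation factors and insertion genes, 4 rose and 7 fell, so that 11 of the 22 were called, with a median log2 fold change of -0.09. OXA1L, which inserts newly made mtDNA-encoded proteins into the inner membrane, rose by 0.74 as deposited, and it is the only other gene of the lists with the constant of 0.66, with a log2 fold change of 0.08 after subtraction (limma, adjusted p = 0.517). METAP1D, a mitochondrial methionine aminopeptidase, rose by 0.69 (limma, adjusted p = 0.000502), and MTG1, a GTPase of ribosome assembly, rose by 0.46 (limma, adjusted p = 0.00225). The elongation factor TSFM fell by 0.59 (limma, adjusted p = 0.00256), the matrix protein C1QBP fell by 0.45 (limma, adjusted p = 0.0334) and the initiation factor MTIF2 fell by 0.37 (limma, adjusted p = 0.00176). Calls were thus found in both directions in 3 of the 4 lists.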

How the data were processed

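RNA sequencing of H1975 cells gave 3 parental (0 h) and 3 adapted (72 h of Osi) samples. The authors deposited 1 table of log2 values with 27216 rows. Its DMSO columns were assigned to the parental and its Osi columns to the adapted labels, by replicate number. The unit is not named, and log2(FPKM + 1) was inferred from the values. The submitters' processing notes name hg38, Bowtie2 2.1.0, STAR and edgeR. The annotation and the counter are not given in the sources used here. The test named in the study's methods needs counts, so limma 3.58.1 in R 4.3.3 was fitted to the log2 values (lmFit, eBayes with trend, unpaired) over the 12656 rows with a mean of at least 1, adjusted by Benjamini-Hochberg and called under 0.05. Scripts were tested on simulated data. The number of reads is unknown, so errors are SDs between replicates. Coordinates are from GENCODE release 29, and promoters from RefSeq. Genes of the lists were named by rule: up to 3 that rose most and 3 that fell most past the threshold without overlap. The members and lists were chosen with earlier results of these data known. In all, 21 alternatives to the fit were run.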

Additional observations from a re-analysis of the deposited data

How the results depend on the processing

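Requiring a mean of at least 3 lowered the rows called from 7202 to 4532, with 7 mtDNA-encoded and 11 nuclear members. A minimum change of 1 on the log2 scale in either direction left 1328 rows, 0 mtDNA-encoded and 1 nuclear member, LRPPRC as deposited, which is at 0.45 with its constant subtracted. With no filter, 3 of the 7 mtDNA-encoded calls remained. The rows tested rose to 27216, and the standard errors of the 7 mRNAs became larger at unchanged log2 fold changes. The part of each in the lost calls was not tested. At an adjusted p under 0.01, 7 mtDNA-encoded and 6 nuclear members were called. With 1 sample left out, the mtDNA-encoded count was 7 to 8, the nuclear count 6 to 14, and the difference in the mtDNA share 1.84 to 3.05 percentage points. The median of the mtDNA-encoded members was 0.52 to 0.67 and that of the nuclear members -0.11 to -0.04. Scaling each sample to an equal sum without the mtDNA-encoded rows moved the share of called rows that were higher from 54.0% to 59.1%, the median of all rows from 0.03 to 0.07, and the nuclear calls from 13 to 9, and turned TEFM to 0.0277. MT-CO1 and MT-CO2 hold the highest ranks in every sample, so that quantile normalization sets their change to 0. Leaving out 1 sample changed the sign of values near 0: MT-ND4L ranged from -0.0497 to 0.1496, MT-ATP8 from -0.00767 to 0.502, TFB2M from -0.147 to 0.000646, TEFM from -0.112 to 0.0897, FASTKD2 from -0.00927 to 0.0765 and PPARGC1B from -0.139 to 0.0882, and none of these was called. The cause was not tested. Over all tested rows, samples that share a replicate number did not deviate together (r = -0.05, -0.03 and -0.02), so the numbers were not taken as pairs, although over the 13 mtDNA-encoded members replicate 2 had the lowest mean deviation in both groups (-0.13 and -0.20). With a replicate block, 6761 rows, 8 mtDNA-encoded (MT-ND6 added, limma adjusted p = 0.0207) and 10 nuclear members were called. A share with mitochondrial rRNAs and tRNAs taken out of the sum was not run, since none of the 24 symbols searched was in the sum used here. Without read numbers, low genes such as PPARGC1A cannot be given a detection limit.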
